A study of Bos taurus with 30 samples.

Results

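Skin of tick-susceptible cattle was compared between 48 h and 24 h of tick infestation. The members are the arrays labelled as susceptible skin at these times: 5 arrays at 48 h (animals 07, 09, 10, 11 and 13) and 6 at 24 h (animals 08, 09, 10, 11, 12 and 13), that is 11 of the 30 arrays of the series. Animals 09, 10, 11 and 13 were measured at both times, and no other susceptible animal was. Every animal was an F2 offspring of a cross between Gyr (Bos indicus) and Holstein (Bos taurus), and the labels give neither age nor sex. The series holds 6 resistant and 7 susceptible animals, with biopsies from the sites where ticks fed, taken before infestation (0 h) and at both later times. Resistant animals gave 5 arrays before infestation, 6 after 24 h and 5 after 48 h, and susceptible animals 3, 6 and 5. Each array is 1 biopsy of 1 animal, so the spread within a group is the spread between animals and between biopsy sites of different animals. The labels name neither the tick species nor the dose of ticks.

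Ticks cut through the epidermis into the dermis and feed from a pool of blood and tissue fluid, and the skin answers with clotting, complement activation and an influx of neutrophils, macrophages, mast cells and lymphocytes. Susceptible hosts are those on which many ticks complete feeding, and the interval studied here covers the early attachment of the parasite. A skin biopsy holds epidermis, hair follicles, glands, dermal matrix, vessels and muscle as well as leukocytes, and its RNA is a mixture of all of them, in which fewer cells of a type and less RNA per cell cannot be told apart.

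The values are log2 signals per probe set on a bovine Affymetrix array, scaled by the authors to the same mean in every array. The median probe set lay between 7.17 and 7.37 in the 11 arrays. Of 24016 non-control probe sets, 13809 reached the array median in at least 3 of 30 arrays and were tested, and they cover 7016 genes named by a single symbol. All 5 keratinocyte markers (KRT5, KRT14, KRT10, DSG1, COL17A1) and all 5 dermal fibroblast markers (COL1A1, COL1A2, COL3A1, DCN, LUM) were at or above the array median in all 11 arrays. AQP5 (sweat gland), DCT (melanocyte), VWF (endothelium), MYH1 (skeletal muscle), LEP (adipocyte), FCER1A and TPSB2 (mast cell), CD79A (B cell), HBA and ALAS2 (erythrocyte) were below the median in all 11, so the cell types they stand for rest on their other markers or on none.

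No probe set passed the test between 48 h and 24 h in susceptible skin. In limma's moderated test with Benjamini-Hochberg adjustment, 0 of 13809 probe sets passed an adjusted p of 0.05, and the smallest adjusted p was 0.9999. At an unadjusted p under 0.05 there were 259 probe sets, 1.88% of those tested, of which 172 (1.25%) were higher at 48 h and 87 (0.63%) lower. A share of 5% would be 690.45 probe sets. Among the 7016 genes 1.85% were under that level: 89 (1.27%) were higher and 41 (0.584%) lower. XIST, the RNA of the inactive X chromosome, went against the animal numbers in the resistant group: animal 03 read 2.05 at 0 h but 11.60 and 11.66 at 24 h and 48 h, and animal 05 read 11.54 at 0 h but 4.17 and 3.11 later. Fits with animal as a fixed term take the susceptible difference from the 4 animals measured at both times, and their counts under an unadjusted p of 0.05 depended on which arrays set the spread. That count was 399 (2.89%) over 30 arrays, 451 (3.27%) without both of those resistant 0 h arrays, 277 (2.01%) on susceptible arrays only and 209 (1.51%) on the 4 animals alone. In each of these 4 fits 0 probe sets passed after adjustment, with a smallest limma adjusted p of 0.634, 0.106, 0.9999 and 0.9999. Without the 48 h array of animal 11, the count was 590 (4.27%), and without the 24 h array of animal 13 it was 407 (2.95%), with no probe set passing after adjustment in either.

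The differences between the group means were small. Their absolute size had a median of 0.11 log2 units, a 90th percentile of 0.33 and a 99th percentile of 0.74. Resistant skin over the same interval had 0.16, 0.47 and 1.0 for the same quantities. A difference of at least 2-fold was seen in 49 probe sets (0.355%) of susceptible skin and in 136 (0.985%) of resistant skin (1.07% of its genes), where 1332 (9.65%) had an unadjusted p under 0.05 and the smallest adjusted p was 0.153. The 95% interval of a probe set's difference reached a median of 0.39 log2 units to either side (10th percentile 0.24, 90th percentile 0.74). For 12378 probe sets (89.6%) that interval lay wholly within a 2-fold difference in either direction, and for the rest the interval reached beyond it.

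**Figure D1:**
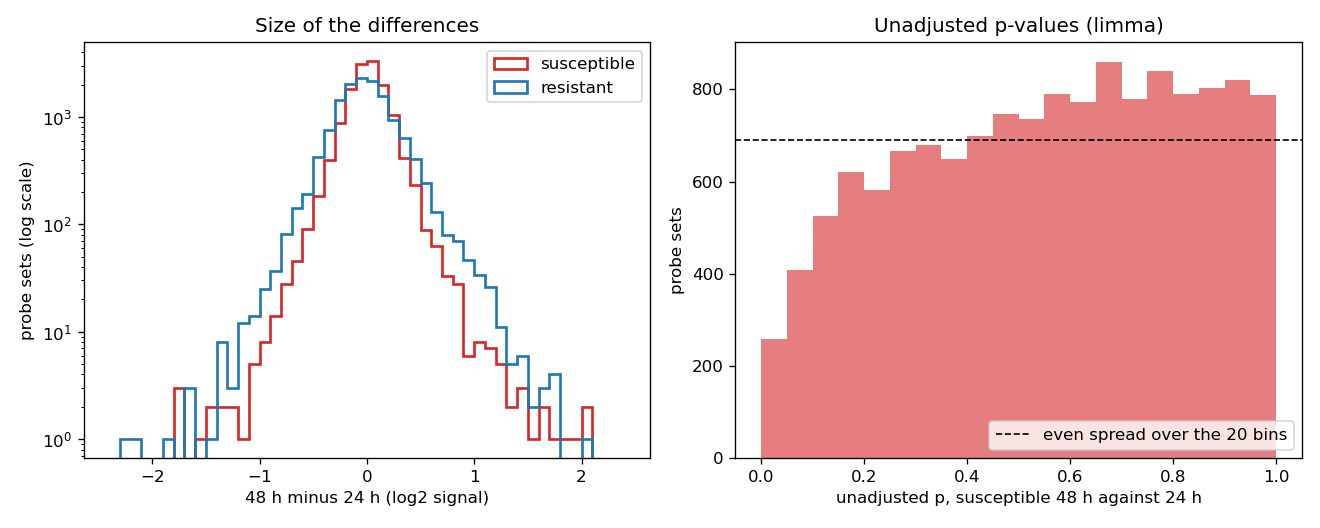
Left: number of probe sets (log scale) by the difference of group means, 48 h minus 24 h (log2 signal), for susceptible and resistant skin, 13809 probe sets each. Right: the unadjusted limma p-values of the susceptible comparison in 20 bins, with a dashed line at an even spread of 690.45 per bin. The susceptible curve is narrower, and the lowest p bin holds 259 probe sets.

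The genes of smallest unadjusted p among those higher at 48 h were CDH23, PCID2, PICK1, NMB, SH2D2A, ARHGEF16, RPUSD3, SPEG, EVA1B and NAT14. CDH23 encodes cadherin 23, an adhesion protein. Its log2 signal at 48 h was 8.63, 8.84, 8.92, 8.81 and 8.30 in animals 07, 09, 10, 11 and 13, and at 24 h it ran from 8.11 to 8.36 with a median of 8.20. Animal 13 at 48 h fell inside the 24 h range, and the group means differed by 0.47 ± 0.14 (SE; limma unadjusted p = 0.0016). PCID2, a component of the mRNA export machinery, gave 10.04, 10.04, 9.92, 10.10 and 10.14 at 48 h against 9.32 to 9.90 at 24 h (median 9.75). All 5 arrays at 48 h were above all 6 at 24 h, so each of the 4 animals measured at both times was necessarily higher at 48 h. The difference of means was 0.37 ± 0.11.

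NMB, which encodes the signalling peptide neuromedin B, read 9.34, 9.87, 9.96, 8.97 and 9.65 at 48 h and 8.11 to 9.67 (median 8.55) at 24 h. Its difference was 0.83 ± 0.27, and animal 11 was lower at 48 h than at 24 h. ARHGEF16 had 7.81, 7.67, 7.43, 6.67 and 7.30 at 48 h against 5.02 to 7.82 (median 6.33) at 24 h. Its difference was 1.02 ± 0.34, with most 24 h arrays below the array median. The remaining 6 genes had differences of 0.34 to 0.67, and they include SH2D2A (0.67 ± 0.22), an adaptor protein of T cells, PICK1 (0.67 ± 0.21), a scaffold protein of membrane receptors, and SPEG (0.65 ± 0.23), a kinase of muscle. SH2D2A, RPUSD3 and EVA1B were higher at 48 h in 4 of 4 animals, beside 4.77% of all genes. The arrays of these animals are among those by which the genes were chosen, so the shared sign is no separate result.

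Among the genes lower at 48 h the smallest p belonged to S100A9, which encodes a subunit of calprotectin, a calcium- and zinc-binding protein abundant in neutrophils and also made by stressed keratinocytes. At 48 h the signal of S100A9 was 7.14, 6.90, 6.76, 6.33 and 7.30, each below the median of its array. At 24 h it ran from 7.10 to 8.53 with a median of 7.70. Animals 09, 10 and 11 at 48 h were below all 24 h arrays, and animal 08 (7.10) was the only 24 h array below the other two. The difference was -0.92 ± 0.30 (95% interval -1.53 to -0.31; limma unadjusted p = 0.0046), and all 4 animals were lower at 48 h, by -0.78, -1.77, -1.13 and -1.03 in animals 09, 10, 11 and 13. A second probe set of S100A9 gave -0.77 ± 0.48.

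GDAP2 read 8.19, 8.49, 8.04, 8.55 and 8.23 at 48 h and 8.50 to 9.07 (median 8.78) at 24 h, with 1 array of the later group above the lowest of the earlier group (difference -0.47 ± 0.15). HEXIM2, an inhibitor of transcription elongation, had 6.95, 6.63, 6.44, 7.27 and 6.81 against 6.87 to 8.04 (median 7.42), and differed by -0.63 ± 0.23. LPCAT2, an enzyme that makes platelet-activating factor, had 5.75, 6.42, 6.87, 6.40 and 5.92 against 6.50 to 7.45 (median 7.15). It differed by -0.72 ± 0.26, with most arrays below the array median. These 3 genes were lower at 48 h in 4 of 4 animals, beside 2.92% of all genes, but GDAP2 in animal 09 differed by only -0.0092. The arrays of these animals are among those by which the genes were chosen. A second probe set of GDAP2 gave -0.38 ± 0.39 and correlated at -0.25 with the first over the 11 arrays.

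PLTP, which encodes a phospholipid transfer protein of plasma and tissue, had the most negative difference of the named genes. Its signal was 7.89, 3.69, 4.28, 6.46 and 4.60 at 48 h and 5.45 to 8.55 (median 7.17) at 24 h. Animals 09, 10, 11 and 13 were lower at 48 h, but animal 07, not measured at 24 h, was the second highest of all 11 arrays, and the values of 09, 10 and 13 at 48 h lay far below the array median (difference -1.73 ± 0.64, 95% interval -3.05 to -0.42). LOC338050, PSME3IP1, MAGEL2, GNAI3 and HSDL2 completed this group, with differences between -0.72 and -0.22. GNAI3, an inhibitory G protein subunit, differed by only -0.23 ± 0.09 at a signal above 11 in all arrays.

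The probe set of smallest p in the whole comparison has no gene symbol (difference 1.17 ± 0.30, unadjusted p = 0.00061). The next was a probe set of VCAN, which encodes versican, a large proteoglycan of provisional dermal matrix. The 3 kept probe sets of VCAN differed by -0.74 ± 0.32, -0.90 ± 0.25 and -0.69 ± 0.42. On the probe set of highest signal, VCAN read 9.18, 8.91, 8.10, 8.11 and 8.80 at 48 h and 8.44 to 10.33 (median 9.26) at 24 h. The groups overlapped, and animal 13 was the only one of the 4 with a higher value at 48 h.

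Complete separation of the groups was rare. In 16 probe sets (0.116%) all 48 h arrays were above all 24 h arrays, and in 5 (0.0362%) all were below. By gene there were 8 (0.114%) and 2 (0.0285%), and they are named here after their values were seen: PCID2, MUS81, MAGED2, TARS2, RXRA, PNKD, AMELX and APBB2 were higher, EXOC5 and DNAJC10 lower. RXRA, the retinoid X receptor alpha that pairs with many nuclear receptors, read 10.58, 11.03, 10.77, 10.68 and 10.59 at 48 h against 10.24 to 10.44 (median 10.38) at 24 h, a difference of 0.38 ± 0.16. MUS81, a DNA endonuclease subunit, differed by 0.50 ± 0.19, and TARS2, a mitochondrial threonyl-tRNA synthetase, by 0.28 ± 0.11. EXOC5, of the exocyst that tethers secretory vesicles, read 10.57, 10.67, 10.64, 10.61 and 10.63 at 48 h against 10.70 to 10.88 at 24 h, a difference of -0.19 ± 0.09. DNAJC10, a disulfide reductase of the endoplasmic reticulum, differed by -0.22 ± 0.14.

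At the level of genes, 14 were higher and 8 lower by at least 2-fold (0.314% of 7016), and 8 of these 22 had an unadjusted p under 0.05. Those 8, named after their values were seen, were PLTP and BGLAP among the lower and ARHGEF16, GSTA2, SFRP1, CERS4, SPP1 and GP2 among the higher genes. SPP1 encodes osteopontin, a secreted matrix and cytokine-like protein. Its signal was 10.08, 10.42, 11.26, 8.73 and 11.22 at 48 h and 7.28 to 10.54 (median 9.01) at 24 h, a difference of 1.33 ± 0.50, and animal 11 was lower at 48 h than at 24 h. SFRP1, a secreted inhibitor of Wnt signalling, had 10.31, 10.85, 11.57, 10.64 and 10.49 against 9.03 to 10.56 (median 9.42), differed by 1.10 ± 0.46 and was higher in 4 of 4 animals. CERS4 (ceramide synthase 4) differed by 1.15 ± 0.55, GSTA2 (a glutathione transferase) by 1.03 ± 0.49 and GP2 by 1.70 ± 0.67, the last with most arrays below the array median.

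**Figure D2:**
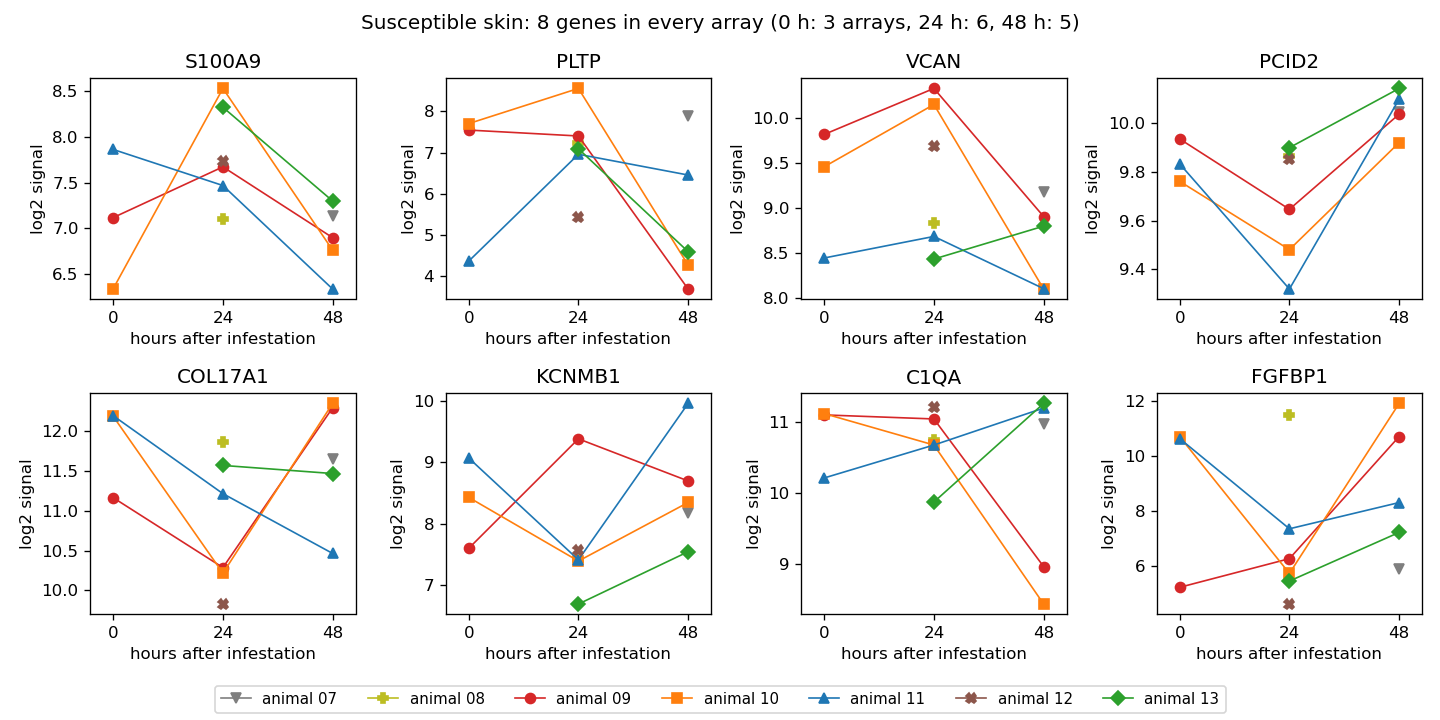
Log2 signal of 8 genes in every susceptible array, by hours after infestation; lines join the arrays of 1 animal, and animals 07, 08 and 12 have 1 array each. S100A9 and PLTP were lower and PCID2 and FGFBP1 higher at 48 h than at 24 h in animals 09, 10, 11 and 13, whereas COL17A1 and C1QA went opposite ways in different animals.

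Within animals the differences between the times were larger than those of the group means. Each within-animal difference is between single arrays, whereas the group means average 5 and 6 arrays, so the sizes cannot be compared directly. The median absolute difference was 0.35, 0.29, 0.30 and 0.24 log2 units in animals 09, 10, 11 and 13, and 12.2%, 9.05%, 7.3% and 3.85% of probe sets differed by at least 2-fold; these are single pairs of arrays with no test. Their directions were largely opposed. Across 13809 probe sets, which are not independent replicates, the within-animal differences correlated at 0.45 between animals 09 and 10 and at 0.31 between 11 and 13, but at -0.36 (09 and 11), -0.39 (09 and 13), -0.30 (10 and 11) and -0.31 (10 and 13). Of 7016 genes, 1478 (21.1%) were higher in 09 and 10 and lower in 11 and 13, and 1060 (15.1%) were the reverse. Only 335 genes (4.77%) were higher in all 4 animals and 205 (2.92%) lower in all 4. With 4 pairs, an exact two-sided sign-flip test cannot reach p = 0.05.

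Other measures differed between these animals. XIST read 2.99 and 3.13 at 24 h and 4.02 and 4.69 at 48 h in animals 09 and 10, against 11.60 and 11.95 at 24 h and 12.12 and 11.97 at 48 h in animals 11 and 13. The 3' minus 5' signal of the control transcripts, a measure of RNA integrity and labelling, went from 0.65 to 1.69 in animal 09, 0.37 to 0.47 in 10, 2.22 to 1.92 in 11 and 1.38 to 0.70 in 13. Their part in the within-animal differences was not tested. Adding XIST (high or low) or the 3' minus 5' value as a term left 0 probe sets past the threshold in the group comparison.

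Genes of the same sign in all 4 animals were ranked by their smallest absolute within-animal difference. Those with the largest were FGFBP1, MOSPD2, SLC15A1, MCF2L and PTGR3 (higher) and S100A9, MAGEL2, PLTP, SERINC2 and BGLAP (lower). FGFBP1, which encodes a secreted carrier of fibroblast growth factors, read 5.91, 10.71, 11.91, 8.31 and 7.23 at 48 h and 4.63 to 11.50 (median 6.01) at 24 h. It was higher in all 4 animals, yet the highest 24 h array (animal 08) and the lowest 48 h array (animal 07) came from animals measured once, and the group difference of 1.99 ± 1.52 had an interval from -1.13 to 5.10. MCF2L was higher by 0.52 ± 0.24. MAGEL2, a MAGE family member, read 7.72, 6.99, 6.14, 7.41 and 7.31 at 48 h against 7.32 to 8.43 (median 7.78) at 24 h, a difference of -0.72 ± 0.29. BGLAP, the gene of osteocalcin, differed by -1.38 ± 0.58 with most arrays below the array median.

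Gene lists are described next by the count of members higher or lower, and by the median difference of group means, beside all 7016 genes, of which 3854 (54.9%) were higher and 45.1% lower at 48 h with a median of 0.02. Within animals 09, 10, 11 and 13, 57.6%, 55.5%, 46.3% and 48.1% of all genes were higher at 48 h. No member of any of the 36 lists passed the adjusted threshold. In 16 of the 36 lists the median was lower at 48 h in animals 09 and 10 and higher in 11 and 13, and in 8 it was the reverse. Over the alternatives tried, the sign of the group median held throughout in 16 lists and turned in at least 1 alternative in 20.

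Monocyte and macrophage genes showed this opposition in every member. Of 14 genes, 0 were higher at 48 h in animal 09 (median -0.86) and 0 in animal 10 (-1.04), whereas 14 were higher in animal 11 (0.53) and 14 in animal 13 (0.66). The group median was -0.18, with 1 gene higher and 13 lower, and it became 0.09 without the 48 h array of animal 10. The mean log2 signal of the list at 48 h was 8.59, 7.61, 7.06, 9.07 and 8.63 in animals 07, 09, 10, 11 and 13, around a 24 h range of 7.91 to 8.72, so the 48 h arrays lay on both sides of the 24 h arrays (SD 0.83 against 0.30). C1QA, a chain of the complement recognition protein C1q that macrophages secrete, read 10.97, 8.96, 8.44, 11.20 and 11.26 at 48 h and 9.87 to 11.21 (median 10.71) at 24 h, a difference of -0.54 ± 0.40. CSF1R, the macrophage growth factor receptor, read 8.22, 7.03, 4.49, 8.67 and 7.62 against 6.96 to 8.16 (median 7.98), a difference of -0.56 ± 0.45 that became 0.12 without the 48 h array of animal 10.

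Complement genes followed the same order of animals. Of 18 genes, 15 were lower at 48 h with a group median of -0.18 (-0.42 without the 48 h array of animal 11, -0.06 without the 24 h array of animal 12), and the within-animal medians were -1.10, -1.18, 0.60 and 0.61 in 09, 10, 11 and 13. CD55, which encodes a membrane inhibitor of complement activation, read 10.40, 10.37, 9.99, 11.34 and 11.0004 at 48 h and 10.52 to 12.38 (median 11.18) at 24 h. It differed by -0.72 ± 0.38 with overlapping groups. Coagulation and fibrinolysis genes had 12 of 15 members lower, a median of -0.11 and within-animal medians of -0.44, -0.89, 0.09 and 0.27. PROS1, the anticoagulant protein S, differed by -0.45 ± 0.33 and PLAUR, the urokinase receptor, by -0.32 ± 0.21, the latter lower in 4 of 4 animals.

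Of the neutrophil list, 7 of 17 genes were kept, and 5 of them were lower at 48 h (median -0.38, and -0.05 without the 48 h array of animal 11). The within-animal medians, -0.05, -0.83, -1.15 and -1.03, were below 0 in all 4 animals, the only list for which this held. The members had different signs: 2 were higher at 48 h, the larger by 0.56, whereas all those named here were lower. S100A9 is given above; S100A12, another calgranulin, read 8.77, 10.05, 10.81, 9.18 and 10.04 at 48 h against 9.54 to 11.17 (median 10.21) at 24 h, differed by -0.60 ± 0.38 and was lower in 4 of 4 animals. S100A8, the partner of S100A9 in calprotectin, differed by -0.38 ± 0.40 and was higher in animal 09. ITGB2, the shared chain of leukocyte integrins, was lower in animals 09 and 10 and higher in 11 and 13, with a group difference of -0.18 ± 0.40.

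T cell and natural killer genes had 8 of 11 members higher with a group median of 0.19 (0.06 with animal as a fixed term, 0.41 without the 24 h array of animal 09), and within-animal medians of -0.50, -0.41, 0.75 and 0.85. ZAP70, a kinase of the T cell receptor pathway, differed by 0.49 ± 0.37 and CD2, an adhesion receptor of T cells, by 0.47 ± 0.34. Both had signals below the array median in most arrays. Inflammatory cytokine and chemokine genes had 10 of 13 higher (median 0.15, and 0.01 without the 48 h array of animal 11), with CCL8, a monocyte chemoattractant, at 7.97, 7.69, 7.38, 6.63 and 7.15 at 48 h against 6.65 to 7.52 (median 6.77) at 24 h and a difference of 0.49 ± 0.25. For mast cells, basophils and eosinophils 5 genes were kept, with a median of -0.01 and within-animal medians of -0.88, -1.33, 0.28 and 0.72. Both TPSB2, a mast cell tryptase (-0.45 ± 0.62), and FCER1A, a chain of the IgE receptor (-0.46 ± 0.55), were measured below the array median.

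Interferon-gamma targets (median 0.06 over 9 genes), type I interferon targets (-0.04 over 14), antigen presentation (0.06 over 15), type 2 signals (-0.03 over 8) and leukocyte adhesion (0.06 over 14) had group medians within 0.1 of 0, and each median took the other sign in at least 2 of the alternatives. IDO1, the tryptophan-degrading enzyme induced by interferon-gamma, differed by 0.30 ± 0.44, and EIF2AK2, the antiviral kinase PKR, by -0.46 ± 0.36. BOLA-DQA2, a class II histocompatibility gene, ranged from 4.42 to 10.37 at 24 h and from 6.05 to 10.59 at 48 h and gave 1.62 ± 1.42. Class II DQ genes have near-identical copies and differ between animals, so that this value is uncertain.

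**Figure D3:**
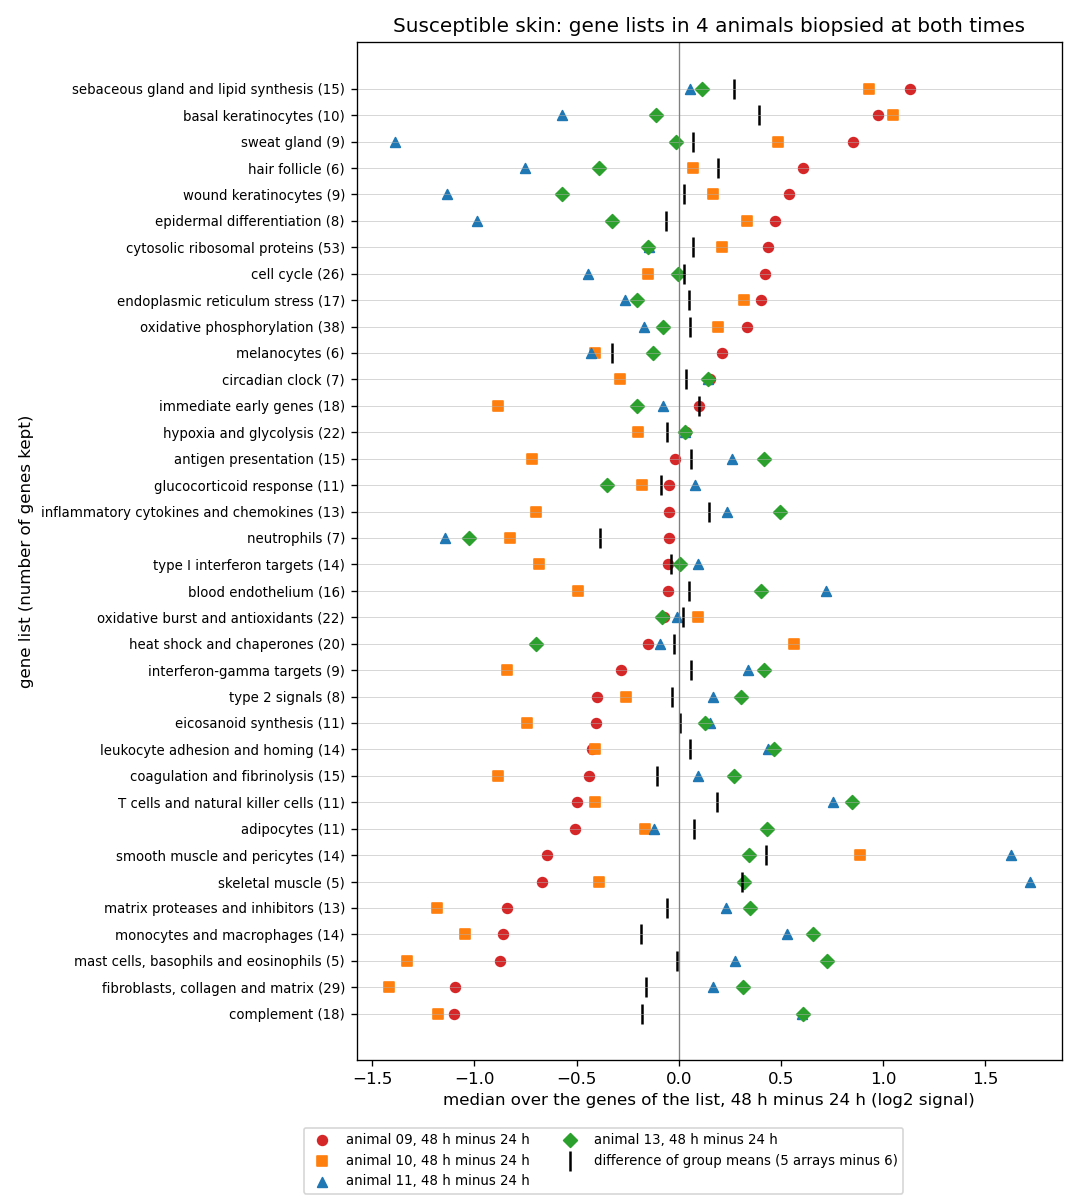
Median difference, 48 h minus 24 h (log2 signal), over the genes of each of 36 lists, for each of the 4 animals measured at both times (coloured markers) and for the group means (black bars); the number of genes kept is in brackets. In the complement, matrix, mast cell and macrophage lists animals 09 and 10 lie left of 0 and 11 and 13 right, and in the basal keratinocyte and hair follicle lists the reverse.

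Basal keratinocyte genes ran opposite to the macrophage and matrix lists in each animal. These genes, several of which anchor the epidermis to its basement membrane, were higher at 48 h in 9 of 10 cases with a group median of 0.39, and the sign of that median held in every alternative. The within-animal medians were 0.97, 1.05, -0.57 and -0.11 in animals 09, 10, 11 and 13. COL17A1, a transmembrane collagen of hemidesmosomes, read 11.66, 12.29, 12.35, 10.46 and 11.47 at 48 h and 9.83 to 11.87 (median 10.75) at 24 h. Animals 09 and 10 were the highest of all 11 arrays, animals 11 and 13 were lower at 48 h than at 24 h, and the group difference was 0.82 ± 0.40 (limma unadjusted p = 0.0497), with 0.75 ± 0.35 on a second probe set. ITGB4, the integrin chain of hemidesmosomes, differed by 0.45 ± 0.23 and KRT14, the keratin of basal cells, by 0.63 ± 0.48.

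Wound keratinocyte genes (9 genes, median 0.02) and epidermal differentiation genes (8 genes, median -0.06) had no constant group direction, with within-animal medians of 0.54, 0.17, -1.13 and -0.57 for the first and 0.47, 0.33, -0.99 and -0.33 for the second. S100A7, which encodes psoriasin, an antimicrobial protein of stressed epidermis, read 6.79, 9.58, 13.07, 8.59 and 6.50 at 48 h and 9.02 to 12.37 (median 10.71) at 24 h. It was lower in 3 of 4 animals and higher in animal 10, and the group difference was -1.72 ± 1.10. Hair follicle genes had 5 of 6 members higher (median 0.19), though only 6 of 31 genes were kept, and sweat gland genes 7 of 9 (median 0.07). Leaving out single arrays moved these medians between 0.05 and 0.32 and between 0.01 and 0.34.

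Sebaceous gland and lipid synthesis genes were higher in 11 of 15 cases, with a group median of 0.27 and within-animal medians of 1.13, 0.93, 0.05 and 0.11. The group median was 0.05 without the 48 h array of animal 09, 0.10 without that of animal 10 and 0.56 with animal as a fixed term. ACSL1, which activates long-chain fatty acids, read 11.32, 12.38, 12.96, 11.92 and 11.79 at 48 h and 11.21 to 12.34 (median 11.54) at 24 h, was higher in 4 of 4 animals and differed by 0.48 ± 0.33. ELOVL6, a fatty acid elongase, differed by 0.43 ± 0.29. Melanocyte genes were lower in 5 of 6 cases (median -0.33, from -0.58 without the 48 h array of animal 13 to -0.08 without that of animal 09), with MITF, the master transcription factor of melanocytes, at -0.51 ± 0.26. The within-animal medians of this list, 0.21, -0.41, -0.43 and -0.13, followed neither of the common orders.

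Matrix genes of dermal fibroblasts were lower in 21 of 29 cases (median -0.16), and this median became 0.07 without the 48 h array of animal 10. Animals 09 and 10 had medians of -1.10 and -1.42, animals 11 and 13 of 0.17 and 0.32. LUM, which encodes lumican, a proteoglycan that organises collagen fibrils, read 12.62, 12.12, 11.60, 12.75 and 12.58 at 48 h and 12.13 to 13.56 (median 13.07) at 24 h, a difference of -0.61 ± 0.31. Matrix proteases and inhibitors were lower in 10 of 13 cases with a median of -0.06, and MMP2, the gelatinase of fibroblasts, differed by -0.42 ± 0.29.

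Smooth muscle and pericyte genes had another order of animals. At 48 h 13 of 14 members were higher (median 0.43), 3 of them at an unadjusted p under 0.05, against 1.27% of all genes higher at that level. The median was 0.26 without the 48 h array of animal 11 and 0.67 without the 24 h array of animal 09. The within-animal medians were -0.65, 0.89, 1.63 and 0.34, so animal 09 alone was lower. KCNMB1, a subunit of the calcium-activated potassium channel of smooth muscle, read 8.17, 8.70, 8.35, 9.96 and 7.55 at 48 h and 6.70 to 9.38 (median 7.42) at 24 h, a difference of 0.90 ± 0.40. TPM2, a tropomyosin, differed by 0.63 ± 0.30 and ACTA2, smooth muscle actin, by 0.75 ± 0.36. The skeletal muscle list (5 of 21 genes kept) had a median of 0.31 with 1.72 in animal 11 (0.03 without the 48 h array of that animal), and blood endothelium genes one of 0.05 over 16 genes.

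Genes of general cell function differed little between the times. Cytosolic ribosomal protein genes were higher in 52 of 53 cases, but by a median of 0.07, and by 0.02 after quantile normalization, beside a median over all genes of 0.02. Their within-animal medians were 0.44, 0.21, -0.14 and -0.15, so the uniform sign of the group means was not the sign in each animal. Oxidative phosphorylation genes (31 of 38 higher) had a median of 0.06, with CYC1, of respiratory complex III, at 0.27 ± 0.15 and higher in 4 of 4 animals. Cell cycle genes (26 genes, median 0.02), hypoxia and glycolysis (22, -0.06), endoplasmic reticulum stress (17, 0.05), heat shock (20, -0.02) and oxidative burst and antioxidant genes (22, 0.02) lay within 0.1 of 0.

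Immediate early genes, which are induced within minutes of a stimulus, including tissue handling, varied widely between biopsies. FOS read 11.92, 8.99, 13.49, 11.20 and 11.74 at 48 h and 8.72 to 14.44 (median 9.79) at 24 h, with the highest value in animal 10 at both times, and differed by 1.09 ± 0.80. All 18 genes of this list were lower at 48 h in animal 10 (median -0.88), while the group median was 0.10, and -0.21 with animal as a fixed term. Circadian clock genes (7 genes, median 0.04), eicosanoid synthesis genes (11, 0.01), adipocyte genes (11, 0.07) and glucocorticoid response genes (11, -0.08) were also near 0. In the adipocyte list LPL, lipoprotein lipase, differed by -0.66 ± 0.39. CIDEC, a lipid droplet protein whose signal was below the array median in most arrays, differed by -1.08 ± 0.60.

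The change from 24 h to 48 h was then compared with that of resistant skin. The resistant arrays are not in the susceptible group means, but they share in the estimate of the spread used above. The susceptible arrays are the same as above, so this comparison is not independent of those results. The difference of the changes, susceptible minus resistant, passed the adjusted threshold in 0 of 13809 probe sets (limma, smallest adjusted p = 0.921), and 724 (5.24%) had an unadjusted p under 0.05, 2.9% with the susceptible change higher and 2.35% lower. By gene the count was 401 (5.72%), 197 (2.81%) with the susceptible change higher and 204 (2.91%) with it lower. This count rests on single arrays: over probe sets it was 401 (2.9%) without the susceptible 48 h array of animal 10, 1402 (10.2%) without that of animal 11, and 443 (3.21%) without the resistant 48 h array of animal 01. With animal as a fixed term it was 1135 (8.22%), and 1340 (9.7%) when the resistant 0 h arrays of animals 03 and 05 were left out. Over 13809 probe sets the changes of both phenotypes correlated at -0.07, as a description across probe sets.

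Macrophage genes had the largest gap between the phenotypes among the 36 lists. In resistant skin 14 of 14 were higher at 48 h with a median of 1.01, and the medians of the 5 resistant animals measured at both times ran from 0.82 to 1.32. The difference of changes had a median of -1.33 over the list, with an unadjusted p under 0.05 in 11 of 14 genes, all with the susceptible change lower, beside 2.91% of all genes. That number was 8 without the resistant 48 h array of animal 01, 7 without the susceptible 48 h array of animal 10 and 6 with array weights. In these fits 3.21%, 2.9% and 4.45% of all probe sets were under that level in either direction, against 5.24% in the main fit. For C1QA the susceptible change of -0.54 (95% interval -1.36 to 0.28) stood against 1.28 ± 0.40 in resistant skin, and the difference was -1.82 ± 0.57 (limma unadjusted p = 0.0033, adjusted p = 0.921). C1QA was named for the small p of its susceptible change within the list. That change enters the difference, so the value is given as a description. CD68, a lysosomal protein of macrophages, gave -0.23 ± 0.31 against 1.04 ± 0.31. All 5 resistant animals were higher at 48 h for C1QA, CSF1R and CD68, and 2 of 4 susceptible animals were.

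Complement genes had a median change of 0.65 in resistant and -0.18 in susceptible skin, and 7 of 18 had an unadjusted p under 0.05 for the difference, beside 5.72% of all genes. The count was 4 without the susceptible 48 h array of animal 10 (2.88% of all genes), 11 without the 24 h array of animal 13 (8.14%) and 5 without the resistant array named above (3.45%). For CFP, which encodes properdin, the stabiliser of the alternative complement pathway, the susceptible arrays read 7.76, 6.37, 6.25, 7.61 and 7.61 at 48 h and 7.11 to 8.05 (median 7.50) at 24 h. Its change was -0.45 ± 0.27 in susceptible and 0.84 ± 0.27 in resistant skin. Matrix genes had medians of -0.16 and 0.31, with 4 of 29 at an unadjusted p under 0.05. That count was 0 without the susceptible 48 h array of animal 10 and 10 without that of animal 11 (11.2% of all genes). With animal as a fixed term it was 14 (8.81% of all genes). The count thus changed with the fit, and it was highest in a fit where the share over all genes was not.

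Basal keratinocyte genes went the other way, with a median of -0.60 in resistant and 0.39 in susceptible skin. The difference had an unadjusted p under 0.05 in 5 of 10 genes, all with the susceptible change higher, beside 2.81% of all genes, and in 3 without the resistant array of animal 01 at 48 h. Without that array 3.21% of all probe sets were under that level in either direction, against 5.24% in the main fit. COL17A1 differed by -0.79 ± 0.40 in resistant against 0.82 ± 0.40 in susceptible skin. It was named for the small p of its susceptible change, so this contrast is given as a description. SPP1 differed by -1.09 ± 0.50 in resistant skin, and its difference between the phenotypes was 2.42. This gene was named for its high susceptible change, seen beforehand. That change enters the difference, so the value is given as a description. Smooth muscle genes had medians of 0.51 in resistant and 0.43 in susceptible skin, and neutrophil genes -0.46 and -0.38.

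**Figure D4:**
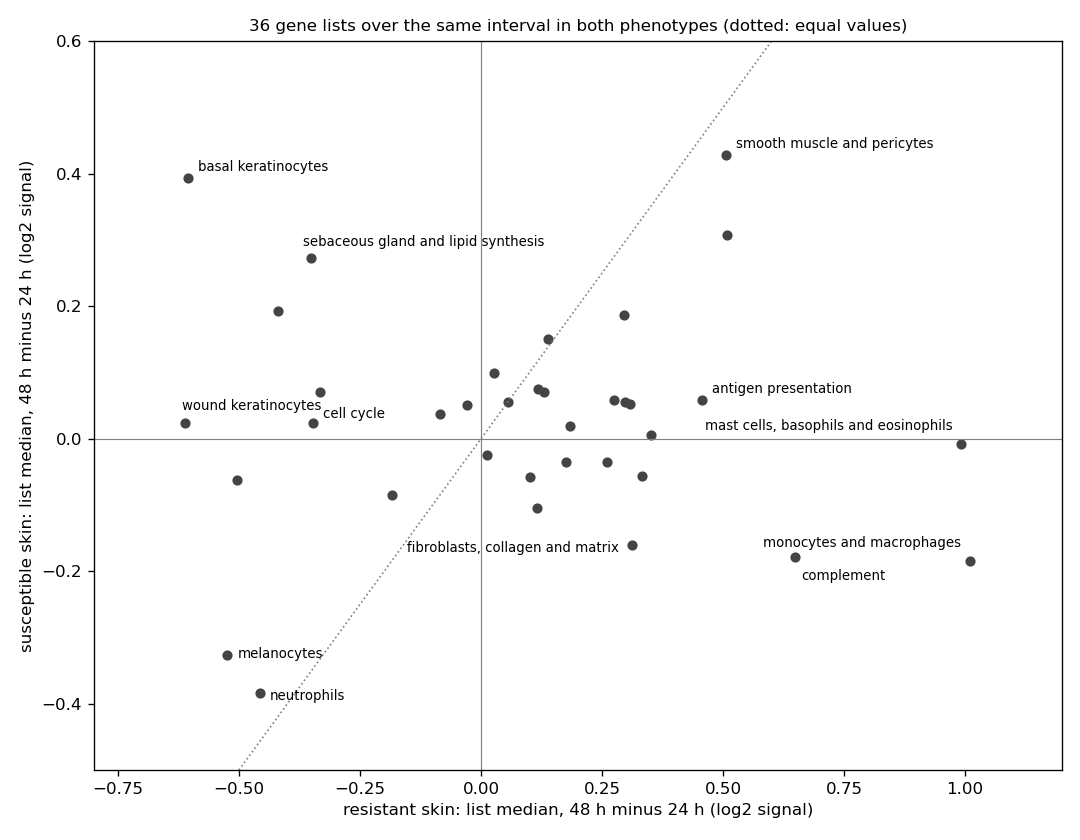
Median change from 24 h to 48 h (log2 signal) of 36 gene lists in resistant skin (horizontal) and susceptible skin (vertical); the dotted line marks equal values, and 12 lists are named. Macrophage genes lie at 1.01 in resistant and -0.18 in susceptible skin, basal keratinocyte genes at -0.60 and 0.39, and smooth muscle genes near the line.

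The genes of smallest p for the difference between the phenotypes were led by ANP32E, TCOF1, TOR3A and KIF21A on the side of a higher susceptible change. They were chosen by that difference, which holds the changes of both phenotypes, so their changes are given as a description. ANP32E, a chaperone of the histone variant H2A.Z, read 9.01, 9.23, 8.89, 8.63 and 8.89 at 48 h and 8.74 to 8.97 (median 8.85) at 24 h in susceptible skin, a change of 0.08 ± 0.13. In resistant skin it was lower at 48 h in all 5 animals (-0.65 ± 0.13), and the difference was 0.72 ± 0.18 (limma unadjusted p = 0.00039, adjusted p = 0.921). KIF21A, a kinesin motor, likewise differed by 0.03 ± 0.20 in susceptible and -0.95 ± 0.20 in resistant skin. TCOF1, a nucleolar protein of ribosomal RNA synthesis, differed by 0.32 ± 0.11 against -0.26 ± 0.11, and TOR3A by 0.26 ± 0.14 against -0.45 ± 0.14.

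On the side of a lower susceptible change stood VAMP3, a vesicle fusion protein, YPEL3, TSPAN4, a tetraspanin, and CFP. VAMP3 differed by -0.15 ± 0.10 in susceptible and 0.35 ± 0.10 in resistant skin, YPEL3 by -0.23 ± 0.13 and 0.45 ± 0.13, and TSPAN4 by -0.32 ± 0.19 and 0.59 ± 0.19. All 5 resistant animals were higher at 48 h for each of these 4 genes. The resistant change enters the difference by which the genes were chosen, so this count is a description too. HEXIM2 and MAGEL2, given above as lower in 4 of 4 susceptible animals, were higher in 5 of 5 resistant animals, with changes of 0.40 ± 0.23 and 0.58 ± 0.29 there, and differences of -1.03 ± 0.32 and -1.30 ± 0.41 between the phenotypes. Both genes were named for their low susceptible values, which enter that difference, so it is given as a description.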

How the data were processed

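RNA of skin biopsies was measured on a bovine Affymetrix 3' expression array, 1 array per biopsy. The authors deposited log2 signals computed with MAS5, per the submitters' processing notes (version and settings not given in the sources used here); the linear 2% trimmed mean was 500 in each array when computed from the deposited values, so differences in total RNA per biopsy are not in these values. MAS5 subtracts mismatch probes, which makes low signals noisy. Arrays give no read depth, and their number limits the precision.

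Of 24128 probe sets 112 controls were left out. Probe sets at or above the array median of non-control probe sets in at least 3 of 30 arrays were kept (13809). Gene names come from the platform annotation: 13292 non-control probe sets have 1 symbol, 86 several and 10638 none; 13263 matched RefSeq gene identifiers. A gene is represented by its kept probe set of highest mean signal.

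limma 3.58.1 in R 4.3.3 fitted 6 group means to 30 arrays with an intensity trend and no block; p-values were Benjamini-Hochberg adjusted over 13809 probe sets at 0.05. A second contrast took the susceptible minus the resistant change. Equal numbers mark the same animal, per the labels, and XIST was high or low alike in the susceptible arrays of each number; resistant 0 h arrays 03 and 05 went against theirs. Deviations from group means of the same animal correlated at -0.04, 0.25, 0.25 and 0.22 (animals 09, 10, 11, 13), against -0.44 to 0.34 (median -0.025) over 26 pairs of different animals, so these correlations do not separate the pairs. In data simulated for the 48 h against 24 h comparison over 13809 probe sets, 73 of 100 changes of 1 log2 unit and 96 of 100 of 2 were recovered, with 8 false calls. The simulated noise was independent between probe sets and between arrays. Without changes it gave 695 probe sets at an unadjusted limma p under 0.05, against 259 in the real data. These recovery rates may therefore not hold for the real comparison.

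The comparison and the gene lists were chosen with earlier results of these data known. Named are the 10 genes of smallest p in each direction and up to 2 of smallest p per list of at least 5 kept genes. Also named are the 4 of smallest p each way for the difference between phenotypes. Further named are the 5 genes each way that shared a sign in all 4 animals and whose smallest within-animal difference was largest. The rule had allowed 3 genes per list and every defining marker; it was narrowed to 2 with some markers (KRT14, ACTA2, CD68) after the values and their changes of sign under the alternatives had been seen. S100A8 and ITGB2 were also chosen after their values were seen. B cells and plasma cells, dendritic cells, lymphatic vessels, nerve, erythrocytes and platelets had under 5 kept genes and are not described. Alternatives were quantile normalization, median centring, an offset, other filters, animal as a block, array weights, covariates and leaving out each susceptible 24 h or 48 h array. Of the resistant arrays, only those of animal 01 at 48 h and of animals 03 and 05 at 0 h were left out in some fits over both phenotypes.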

Additional observations from a re-analysis of the deposited data

Results flagged for a closer look

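In 11 of 244 groups of arrays (a named gene at 1 time) a single array lay far from the rest by Dixon's criterion, where 1 in 20 would be 12.2 by chance. At 48 h, animal 10 was the low array for TPSB2 (2.37) and BOLA-DQA2 (6.05). At 48 h, animal 07 stood apart for NAT14 (7.79), animal 11 for EIF2AK2 (8.30) and MUS81 (7.42), and animal 13 for RPL31 (14.19). At 24 h, animal 10 was the high array for FOS (14.44), NR4A1 (11.26) and CCL8 (7.52). At 24 h, animal 08 was the high array for ACSL1 (12.34) and animal 09 for KCNMB1 (9.38).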

How the results depend on the processing

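No probe set passed the adjusted threshold in limma under any of 28 alternatives for the 48 h minus 24 h comparison or 25 for the difference between phenotypes. With no filter, the count at an unadjusted p under 0.05 went from 259 of 13809 probe sets (1.88%) to 665 of 24016 (2.77%). It also moved by over 1.5 times to 399 (2.89%) with animal as a fixed replicate block and to 403 (2.92%) with array weights. With the fixed block it was 451 (3.27%) without resistant 0 h arrays 03 and 05, a fit added after seeing the data. Other paired fits moved it less: 347 with animal as a random block, 277 on susceptible arrays only and 209 on the 4 animals alone. It ranged from 188 to 590 when each susceptible 24 h or 48 h array was left out in turn. For the difference between phenotypes, 724 (5.24%) became 1173 with no filter, a lower share (4.88%) of more probe sets. With animal as a fixed replicate block it became 1135 (8.22%), and 1340 (9.7%) without resistant 0 h arrays 03 and 05. The count ranged from 401 (2.9%) to 1402 (10.2%) when each susceptible 24 h or 48 h array was left out. It was 443 (3.21%) without the resistant 48 h array of animal 01, a choice made after seeing the data. Among 122 named genes, 8 took the other sign in at least 1 alternative: with animal as a fixed block KIF21A (-0.0240), KRT25 (-0.0007625) and NR4A1 (-0.0774), with array weights MC1R (0.0125). When each susceptible 24 h or 48 h array was left out, the differences ran from -0.0639 to 0.1191 for KIF21A, -0.9263 to 0.1202 for CSF1R and -0.7974 to 0.3156 for TPSB2. They ran from -0.5243 to 0.0331 for MC1R, -0.3654 to 0.0022 for RORA and -0.3812 to 0.0300 for ITGB2. With 3 genes per list and all kept markers, 32 of 188 genes took the other sign at least once (91 values); the set was narrowed after this was seen. The cause was not tested.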

Other observations

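For a few genes with several kept probe sets, the probe sets differed in sign. SELPLG, the leukocyte ligand of selectins, gave -0.39 on one and 0.10 on the other, RORA, a nuclear receptor, gave -0.19, 0.34 and 0.01, and ERRFI1, an inhibitor of epidermal growth factor receptor signalling, gave -0.23 and 0.16. Values of these genes are therefore uncertain.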
